A study of Rattus norvegicus with 6 samples.

Results

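The genes described here are 10 that neurons are known to switch on when their axons are damaged: Atf3, Jun, Sox11, Klf6, Stat3, Socs3, Smad1, Cebpd, Gap43 and Gadd45a. They were taken by name. A probe set, the group of short probes by which an Affymetrix array reads 1 transcript, was included when the platform annotation gave it 1 of these 10 symbols and no other. This gave 19 probe sets among the 31042 on the array that were not controls. Jun, Klf6 and Cebpd had 3 probe sets each, Stat3, Smad1 and Gap43 had 2 each, and the others had 1.

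When an axon is cut or compressed, kinases of the DLK and JNK pathway carry a signal back to the cell body, where Jun is phosphorylated and pairs with Atf3 on the promoters of growth and death genes. Cytokines of the gp130 family activate Stat3, whose target Socs3 then shuts the receptor off, and bone morphogenetic proteins act through Smad1. Sox11 and Klf6 are transcription factors that can promote regrowth, Cebpd is a transcription factor of inflammation and injury, Gap43 is a growth cone protein, and Gadd45a belongs to the DNA damage response. In the retina, injury of the optic nerve is known to raise Jun, Atf3, Sox11 and Gadd45a in ganglion cells, the neurons whose axons form that nerve.

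Expression was measured in retinal ganglion cells of 3 adult male Brown Norway rats, 1 array per eye. In each rat, 1 eye had its pressure raised for 10 days by hypertonic saline injected into an episcleral vein, a model of glaucoma, and the fellow eye served as control. Ganglion cells of both eyes carried Fluorogold from the superior colliculus, and 2000 of them per eye were collected by laser capture, then their RNA was amplified. The groups are the left eyes (OS, n = 3 arrays) and the right eyes (OD, n = 3 arrays); the labels used here do not say which eye of a rat had raised pressure. Differences are therefore OS minus OD within a rat and have no known direction with respect to pressure; effects of pressure could cancel if its side varied between rats.

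The precision is set by the number of rats, 3, and by signal over background. The background limit of an array, taken as the 95th percentile over 27 control probe sets whose bacterial RNAs were not spiked in, lay between 261 and 591 intensity units, and 34.8% to 58.1% of probe sets exceeded it. Ganglion cell markers checked the captured cells: Thy1 and Rbpms exceeded the limit on 6 of 6 arrays, Sncg on 5 and Pou4f1 on 4. Summed over the 11 measured markers, intensity was 10802 to 11708 in OS and 21587 to 27981 in OD, so the eyes did not overlap. The amacrine marker sum over 10 genes moved with it, at 11760 to 18626 in OS and 26161 to 67364 in OD, lower in OS in 3 of 3 rats and also without overlap; Gad1, Calb2 and Pax6 carry most of it. Its part in the differences between the eyes was not tested. Fewer ganglion cells in a capture and less marker RNA per cell cannot be told apart in such pooled cells. Genes used as markers of other retinal cells gave signal as well. Above the limit on all 6 arrays were 5 of 12 Mueller glia and astrocyte markers, 4 of 10 photoreceptor markers and 3 of 10 amacrine markers. Of the 12 microglia markers, 0 exceeded it on all 6 arrays and 0 stayed at or below it on all 6. Whether this signal came from other cells or from the ganglion cells was not tested.

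No probe set of the 10 genes passed the test for a difference between OS and OD. Of the 19 probe sets, 11 passed the filter on brightness and were tested, and 0 passed the threshold of 0.05 in limma after Benjamini-Hochberg adjustment over all 15521 tested probe sets, against 0.0129% of all tested. At an unadjusted p under 0.05 there were also 0 of 11, against 6.91% of all tested. The smallest adjusted p among the 11 was 0.801, for Socs3. The 8 that did not pass the filter were all probe sets of Sox11, Cebpd and Gadd45a, and 1 each of Jun, Stat3 and Gap43. With no filter, 0 of 19 passed and 1, a probe set of Stat3, had an unadjusted p under 0.05, against 6.26% of all 31042.

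Taking the brightest probe set for each gene, 8 of the 10 genes had a higher mean in OS and 2 a lower one, with a median log2 difference of 0.30. Sox11, Cebpd and Gadd45a among them lay near or below background and were not tested. The 7 tested genes had 5 higher and 2 lower, with a median of 0.06, beside 3982 of 8594 (46.3%) higher and a median of -0.07 over all tested genes. The same direction in 3 of 3 rats was seen for 0 of the 10 genes and so for 0 of the 7 tested, against 28.7% of all tested genes; no test of this difference was made. In OS, 3 of 10 were higher in rat 1, 4 in rat 2 and 7 in rat 3, and the members' median differences were -0.18, -0.30 and 0.50 in rats 1, 2 and 3. The median SD of the 3 differences was 1.76 for these 10 probe sets and 1.41 for the 7 tested, against 1.10 for all tested genes.

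**Figure D1:**
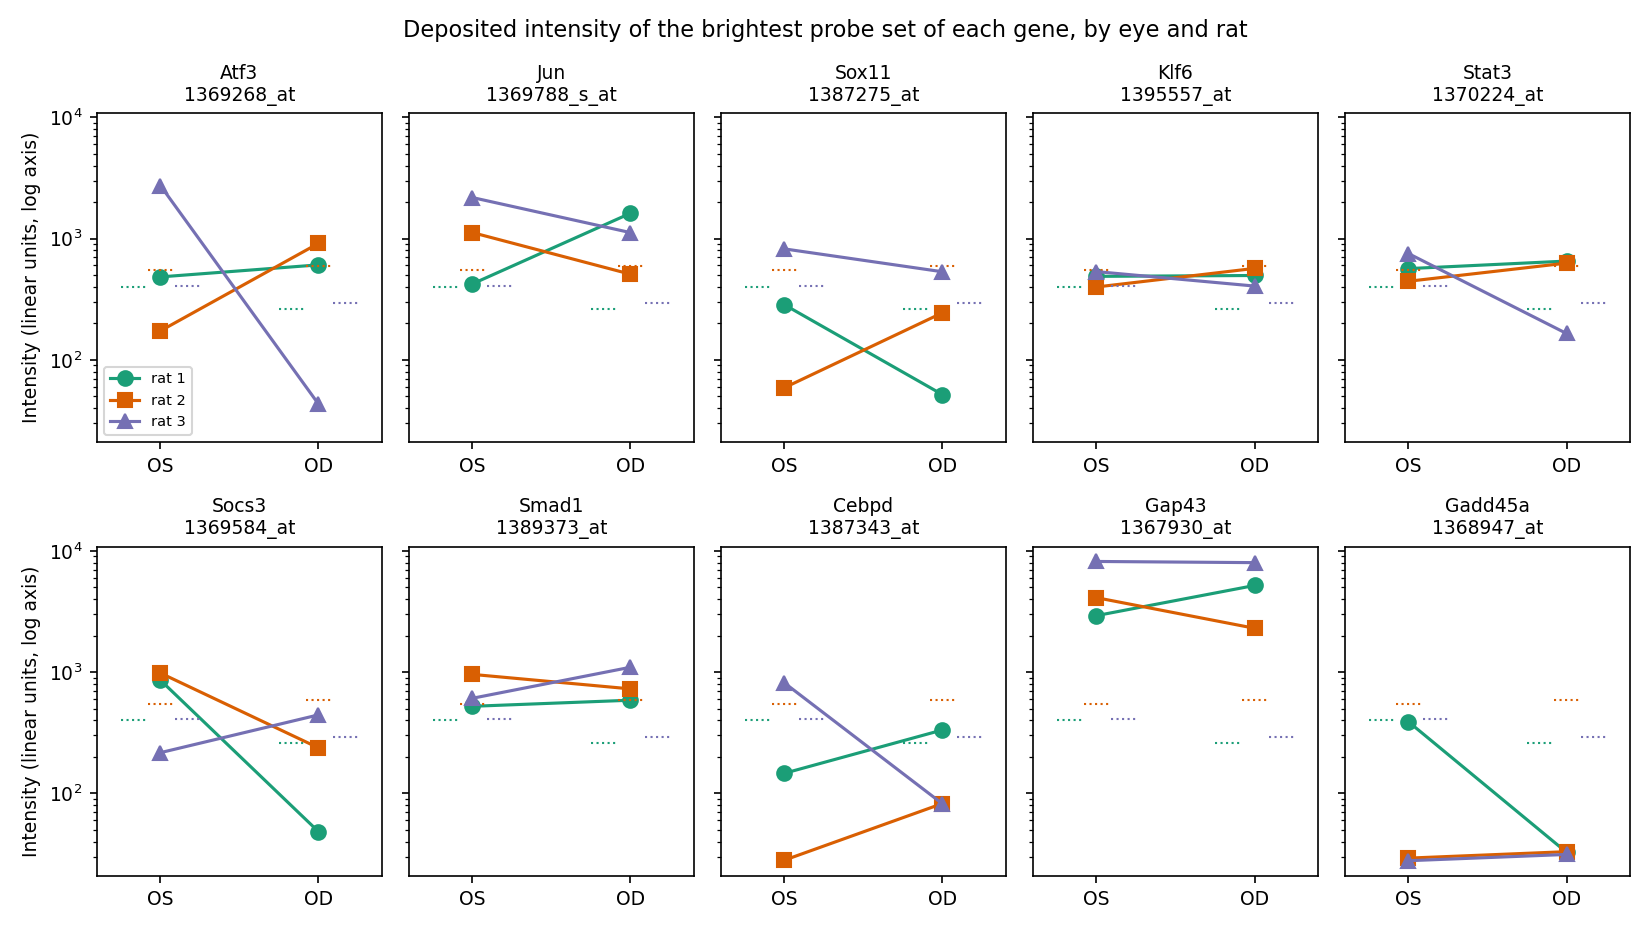
Intensity (linear units, log axis) of the brightest probe set of each of the 10 genes in OS and OD; lines join the eyes of a rat, and dotted segments give the background limit of each array. The lines cross in most panels, Gap43 lies above every limit, and Gadd45a lies below the limit on each of the 6 arrays.

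Atf3 (1369268_at), a stress-induced factor that is a widely used marker of axotomised neurons, was measured at 483, 173 and 2741 in OS of rats 1, 2 and 3, against 607, 913 and 43.2 in OD. The highest and the lowest value thus came from the eyes of the same animal, rat 3. The within-rat log2 differences were -0.32, -2.30 and 5.54, and their mean was 0.97 ± 4.08 (SD, n = 3 rats, limma 95% interval -1.31 to 3.26, adjusted p = 0.879). Without rat 3 the mean was -1.31. Atf3 was brighter than the background limit in 2 of 3 OS and 2 of 3 OD eyes. The values of 173 in OS of rat 2 and 43.2 in OD of rat 3 lay below it, so the sizes of the differences in these rats are uncertain.

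Jun, the partner of Atf3 in AP-1 dimers, read 423, 1121 and 2181 in OS and 1619, 508.5 and 1121 in OD with its brightest probe set (1369788_s_at). It was lower in OS in rat 1 and higher in the others, and the groups overlapped. The mean difference was 0.06 ± 1.69 (SD, n = 3 rats, limma 95% interval -1.28 to 1.39, adjusted p = 0.99). The other probe sets of Jun had means of -0.87 ± 1.86 (1374404_at, not above background in any OS eye) and -0.06 ± 1.62 (1389528_s_at). All 3 were lower in OS in rat 1 and higher in OS in rat 2; in rat 3 they disagreed, at 0.95, -2.73 and 0.04. Names ending in _s_at mark probe sets that may match more than 1 transcript.

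Sox11 (1387275_at), a factor of neuronal development that is re-expressed after injury, read 284.5, 58.9 and 822.5 in OS, against 51.6, 244 and 533 in OD. Both values of rat 3 were higher than the other 4. It was over background in only 1 of 3 OS and 1 of 3 OD eyes, and the probe set did not pass the filter, so it was not tested. The mean difference was 0.32 ± 1.99 (SD, n = 3 rats), higher in OS in 2 of 3 rats.

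Klf6, a zinc finger factor that supports axon growth, gave different pictures with its 3 probe sets, all of which were tested. The brightest (1395557_at) was nearly level, at 488, 399 and 534 in OS and 496, 568 and 406 in OD, with a mean difference of -0.04 ± 0.44 (SD, n = 3 rats, limma 95% interval -1.71 to 1.62, adjusted p = 0.993). The second (1387060_at) read 428, 386 and 877 in OS and 184, 312 and 499.8 in OD, higher in OS in 3 of 3 rats by 0.75 ± 0.43 (limma 95% interval -1.08 to 2.57, adjusted p = 0.881). It exceeded the background limit on 3 of 6 arrays, and both eyes of rat 2 lay below it. The last (1388986_at) had a mean of -1.22 ± 2.82, with 27.5, below background, in OS and 822 in OD of rat 2. The groups overlapped for each of the 3, so Klf6 has no single direction here.

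Promoter sequences of 6 of the 10 genes were found in the RefSeq table of build GRCr8, as windows of 300 bases. They were searched on both strands for the AP-1 site TGACTCA (its reverse complement is TGAGTCA), the CRE site TGACGTCA, the related ATF/JUN site TGACATCA (reverse complement TGATGTCA) and the STAT site TTCNNNGAA. The windows of Stat3, Socs3 and Smad1 belong to start sites 154, 1207 and 112 bases inside the annotated gene. Each window holds 250 bases before its start site. That of Socs3 thus lies wholly inside the gene, and it also reaches the start codon. Those of Stat3 and Smad1 cover only part of the region upstream of the outermost start. Sox11 and Klf6 each held 1 ATF/JUN site, with no overlap of motifs, which 4.34% of all 33469 promoters in the table hold. Neither these windows nor those of Stat3, Socs3, Smad1 and Gadd45a held the other 3 motifs, present in 4.63%, 1.83% and 8.87% of promoters. The letters match the motif in these windows, and whether a factor binds there was not measured. Both windows are shown because Atf3 and Jun, whose dimers recognise this kind of site, are measured beside these genes; capitals mark the motif, which begins 51 bases upstream of the start site in Sox11 and 132 bases upstream in Klf6. The Sox11 window lies at chr6:49738745-49739044 and the Klf6 window at chr17:69458429-69458728, both read from the minus strand.

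Sox11: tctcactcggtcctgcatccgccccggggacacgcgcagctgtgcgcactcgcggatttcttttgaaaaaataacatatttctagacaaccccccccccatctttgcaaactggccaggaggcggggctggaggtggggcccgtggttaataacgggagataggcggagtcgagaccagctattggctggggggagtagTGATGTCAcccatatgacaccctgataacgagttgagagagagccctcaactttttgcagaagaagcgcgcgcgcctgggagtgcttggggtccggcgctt
Klf6: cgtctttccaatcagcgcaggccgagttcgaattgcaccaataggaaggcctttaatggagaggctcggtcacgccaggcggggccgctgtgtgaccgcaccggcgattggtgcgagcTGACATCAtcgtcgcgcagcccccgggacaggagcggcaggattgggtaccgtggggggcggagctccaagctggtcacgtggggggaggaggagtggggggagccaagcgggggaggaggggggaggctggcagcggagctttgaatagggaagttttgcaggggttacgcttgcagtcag

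Socs3 (1369584_at), the feedback inhibitor of cytokine receptors, had the highest mean difference among the 10 brightest probe sets. It read 858, 982 and 216.5 in OS, against 48.3, 237 and 444 in OD. Socs3 was thus higher in OS in rats 1 and 2, by 3.77 and 1.98, and lower in rat 3, by -0.98. The mean was 1.59 ± 2.40 (SD, n = 3 rats, limma 95% interval -0.67 to 3.84, adjusted p = 0.801), and 0.50 without rat 1. Signal of Socs3 was over background in 2 of 3 OS eyes and 1 of 3 OD eyes, which leaves the size of its differences uncertain.

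Stat3, the factor upstream of Socs3, was read by 2 probe sets that went opposite ways. The brighter one (1370224_at) read 566, 445 and 752 in OS, against 653, 628 and 165 in OD, a mean difference of 0.47 ± 1.41 (SD, n = 3 rats, limma 95% interval -1.25 to 2.19, adjusted p = 0.928). It was slightly lower in OS in rats 1 and 2 and higher by 2.09 in rat 3. The dimmer one (1371781_at) read 44.7, 122 and 51.1 in OS, against 249, 684 and 583 in OD, lower in OS in 3 of 3 rats by -2.54 ± 0.54. Its 3 OS arrays all lay below its 3 OD arrays, a pattern that 4.66% of all 31042 probe sets showed and that 1 of the 19 showed. All 3 OS values fell below the background of their arrays, and 2 of 3 OD values exceeded it. Set against the limit of the OS arrays, the mean over the 3 rats was 1.04-fold higher in OD. In rat 1 the OD value, 249, lay below the limits of its own array, 261, and of the OS array, 400. The fold is therefore not a strict lower bound. This probe set did not pass the filter, and with no filter its limma adjusted p was 0.789.

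Cebpd had a higher mean in OS with each of its 3 probe sets, none of which passed the filter. The brightest (1387343_at) read 146, 28.1 and 814 in OS and 333, 82.4 and 81.9 in OD; the mean of 0.27 ± 2.43 (SD, n = 3 rats) came from rat 3, since rats 1 and 2 were lower in OS. The second (1389828_at) read 368.5, 231.5 and 306.5 in OS, against 40.2, 86 and 21.2 in OD, and the third (1368813_at) 308, 129 and 19 in OS, against 84.8, 62 and 15 in OD. Both read higher in OS in 3 of 3 rats. The 3 OS arrays of 1389828_at lay above its 3 OD arrays, as in 5.36% of all probe sets. All 6 arrays were below the background limit for these last 2 probe sets, so no size of difference is given; with no filter the limma adjusted p of 1389828_at was 0.799.

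Smad1, which carries bone morphogenetic protein signals to the nucleus, was above the limit on all 6 arrays with its brightest probe set (1389373_at), at 522, 958 and 608 in OS and 586, 727 and 1097 in OD. The mean difference was -0.20 ± 0.61 (SD, n = 3 rats, limma 95% interval -1.57 to 1.16, adjusted p = 0.963). The groups overlapped, and only rat 2 was higher in OS. The other probe set (1369174_at) had a similar mean of -0.22 ± 1.86, with rat 2 the only animal lower in OS.

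Gap43, a membrane protein of growing axons, was the brightest of the genes, at the 99.3rd percentile of all probe sets (1367930_at). It read 2924.5, 4112 and 8182 in OS, against 5184, 2301 and 8001.5 in OD. Both eyes of rat 3 were higher than those of the other animals. Its mean difference was 0.01 ± 0.83 (SD, n = 3 rats, limma 95% interval -0.88 to 0.91, adjusted p = 0.996), the narrowest interval among the tested probe sets of the 10 genes. The ganglion cell markers were lower in OS as a sum in 3 of 3 rats, while Gap43 was higher in OS in rat 2, nearly level in rat 3 (0.03) and lower in rat 1; the difference between the marker sum and Gap43 was not tested. The second probe set (1371287_at) was dim, above the limit only on the OS array of rat 1 at 445; it differed by 1.12 ± 0.35, with OS higher in each of 3 rats.

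Gadd45a (1368947_at), a stress sensor that is among the genes raised in ganglion cells after optic nerve injury, read 389, 29.2 and 27.8 in OS, against 32.6, 33 and 31.3 in OD. A single array, OS of rat 1, stood above the other 5, which ran from 27.8 to 33. All 6 values were below the background limit of their array, so Gadd45a was not well above background in either eye and no fold is given.

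Over all 19 probe sets, 4 were higher in OS in 3 of 3 rats (1 of Klf6, 2 of Cebpd and 1 of Gap43), 21.1% against 14.9% of all probe sets. The dim probe set of Stat3 was the only 1 lower in OS in 3 of 3 rats, 5.26% against 12.2% of all. These shares rest on few probe sets, and those of 1 gene are not independent of each other.

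**Figure D2:**
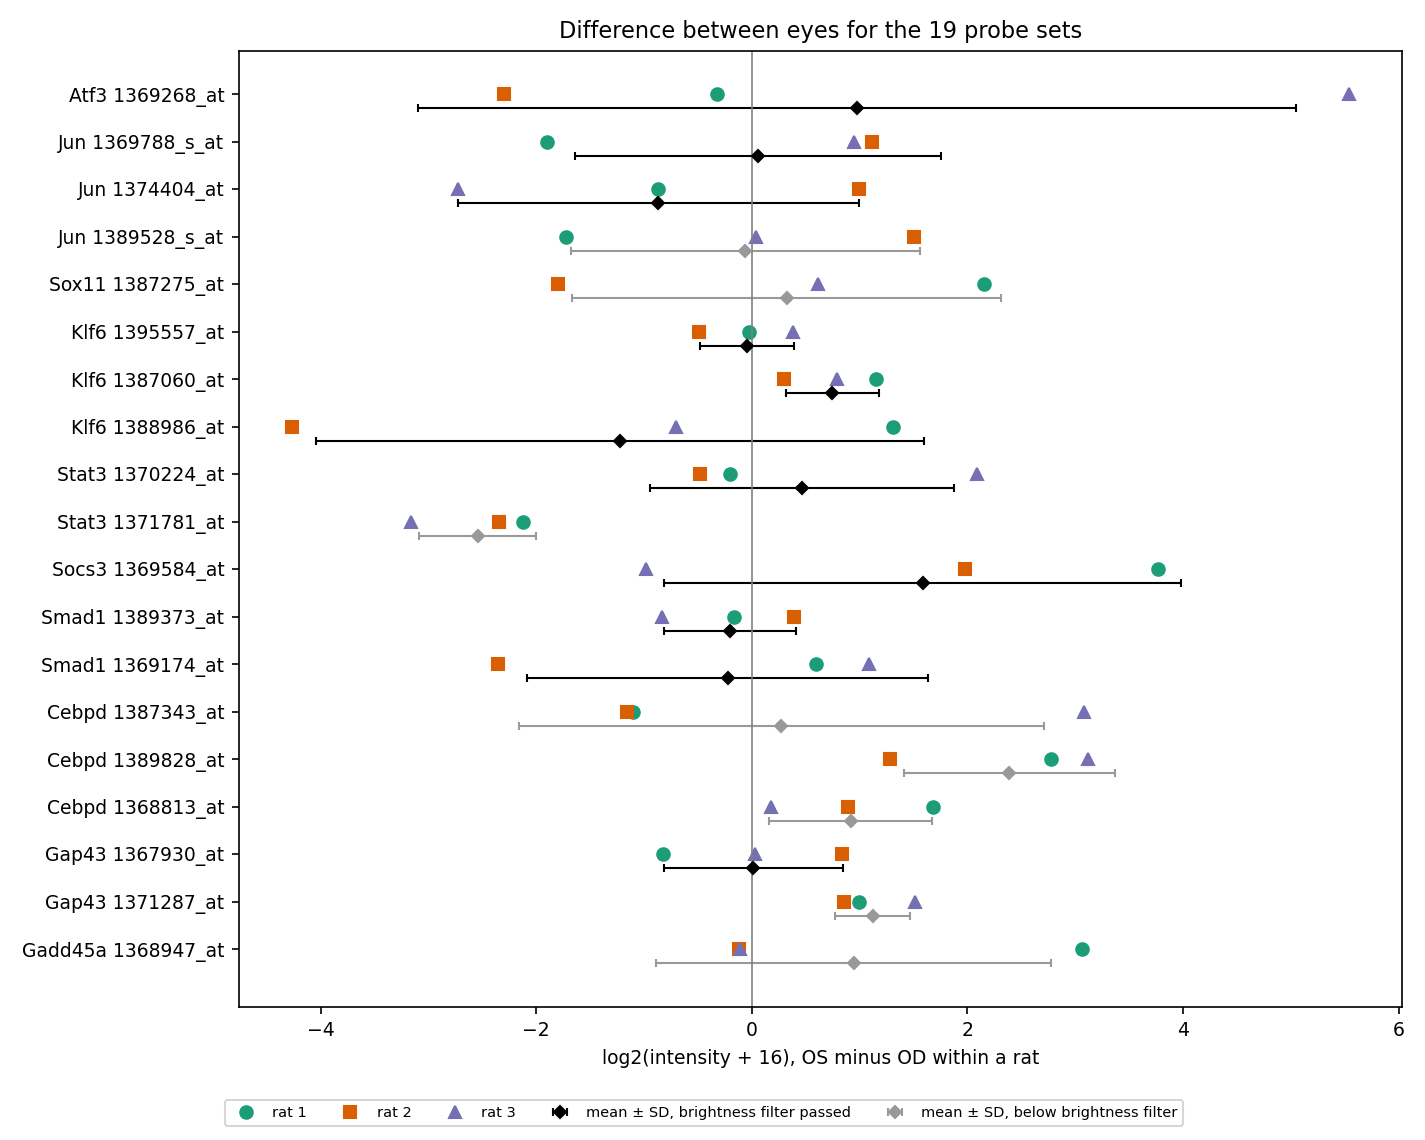
Differences in log2(intensity + 16), OS minus OD, for the 19 probe sets: coloured symbols are the 3 rats and diamonds with bars are the mean ± SD, grey where a probe set did not pass the brightness filter. The rats lie on both sides of 0 for 14 of the 19; Atf3 spans from -2.30 to 5.54.

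The arrays themselves differed in how many of these genes they carried at a high level. The OS array of rat 3 held the highest of the 6 values for 7 of the 19 probe sets, 36.8% against 18.4% of all 31042 probe sets. Among the brightest probe sets these were Atf3, Jun, Sox11, Stat3, Cebpd and Gap43, 6 of the 10 genes. The OD array of the same rat held the highest value for 1 of 19. Among the brightest probe sets, it held the lowest for Atf3 (43.2) and Stat3 (165). Among dimmer ones, it held the lowest for Cebpd 1389828_at (21.2) and 1368813_at (15) and Gap43 1371287_at (7.3). These counts of highest and lowest values were made after the values had been seen and have no test.

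Marker sums and control signals of that array varied in their standing. The microglia marker sum over 12 genes was 6949, 4195 and 13511 in OS, against 3611, 6228 and 4841 in OD. Lyz2, a lysozyme gene, made up 8402 of the sum on the OS array of rat 3; without it the other 11 genes summed to 4764, 3425 and 5109 in OS, against 2866, 5982 and 1993 in OD, with OD of rat 2 highest. The endothelial marker sum over 5 genes was 3940, 2241 and 10762 in OS, against 4605, 4457 and 5184 in OD. Kdr, a VEGF receptor gene, made up 8614 of the sum on the OS array of rat 3, and without it the other 4 summed to 1377, 1232 and 2148 in OS, against 1202, 2230 and 2630 in OD. Each of these sums thus stood highest on that array through 1 gene; the sums without it were taken after the values had been seen. The glial marker sum of 31022 on that array was close to the 29454 of the OD array of rat 3, and Vim, a glial filament gene that endothelial cells also express, read 5185, against 72.7 to 761 on the other 5. The log2 signal of the beta-actin control from its 3' end relative to its 5' end, a measure of RNA integrity and amplification, was 3.11, 0.69 and 3.49 in OS and 1.17, -0.10 and 2.03 in OD, so OS of rat 3 was highest and OS was higher in 3 of 3 rats. The Gapdh control gave another order, at 1.49, 1.60 and 1.89 in OS and 1.20, 0.69 and 4.85 in OD, highest on OD of rat 3 and higher in OS in 2 of 3 rats. The part of these measures in the values of the injury genes was not tested.

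**Figure D3:**
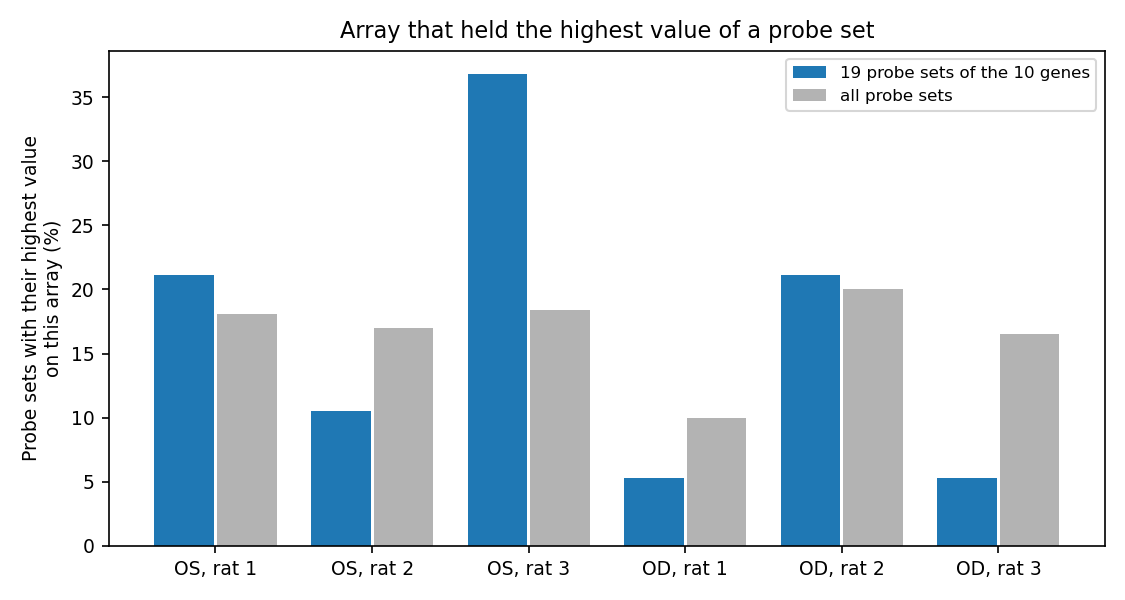
Share of probe sets (%) whose highest of 6 values fell on each array, for the 19 probe sets of the injury response genes (blue) and for all 31042 probe sets (grey). The OS array of rat 3 holds 36.8% of the 19, against 18.4% of all; the OD array of rat 1 holds the smallest share of all probe sets, 9.97%.

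The spread between animals differed from gene to gene. For Atf3, the means of the 2 eyes spanned 0.47 on the log2 scale between rats, while the eyes of a rat differed by 0.32 to 5.54. Socs3 spanned 1.08 between rats, with eye differences of 0.98 to 3.77. For Gap43 (1367930_at) the rats spanned 1.39, rat 3 being highest, while no pair of eyes differed by more than 0.83. Sox11 spanned 2.28 between rats, again with rat 3 highest, and its eyes differed by up to 2.15. A span of means over 2 arrays and a difference between single arrays are not on an equal footing, and these values have no test.

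The signalling pathways around these genes were examined as 7 lists of 140 genes, of which 125 were on the array and 79 were tested. None of the 79 passed the limma threshold in either direction, and 4 had an unadjusted p under 0.05, where 6.91% of all tested probe sets did. By mean, 40 were higher and 39 lower in OS, and the median log2 difference was 0.01, beside -0.07 for all tested genes. Of the 79, 10 were higher and 11 lower in OS in 3 of 3 rats, where 28.7% of all tested genes kept 1 direction. Genes named below were chosen for that shared direction and a mean difference of at least 1. List medians ran from -0.21 for 14 BMP and TGF-beta genes to 0.35 for 7 GADD45 and p53 target genes.

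Among kinases upstream of Jun, Mapk9, which encodes JNK2, read 662, 490 and 668 in OS, against 207, 112 and 162 in OD. The mean log2 difference was 1.84 ± 0.21 (SD over 3 rats, limma 95% interval -0.29 to 3.98, adjusted p = 0.763). The 3 OS arrays lay above the 3 OD arrays, as in 5.36% of all 31042 probe sets. OS values exceeded the background limit on 2 of 3 arrays, while 0 of 3 OD arrays exceeded it. Set against the limit of the OD arrays, the mean over the 3 rats was 1.69-fold higher in OS. In rat 2 the OS value, 490, lay below the limits of its own array, 547, and of the OD array, 591. The fold is therefore not a strict lower bound. The other 5 tested genes of the JNK and DLK list had no difference of at least 1 that all rats shared. In the AP-1 and ATF/CREB list, with 6 of 11 tested genes higher, Atf5, a stress response factor, differed by 1.32 ± 0.41, with OS higher in each of 3 rats (limma adjusted p = 0.73). Ddit3, the CHOP gene of the unfolded protein response, was lower in OS in 3 of 3 rats by -1.45 ± 1.45 (limma adjusted p = 0.735), with 87.5 in OS and 883 in OD of rat 3.

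Of 18 tested genes of gp130 cytokines, receptors and JAK-STAT, 10 were higher and 8 lower in OS by mean. Tyk2, a receptor-bound kinase that phosphorylates STATs, read 765, 831 and 1656.5 in OS, against 507, 247 and 573 in OD, a difference of 1.26 ± 0.59 in 3 of 3 rats (limma adjusted p = 0.753). In the BMP and TGF-beta list, 7 genes were higher and 7 lower. Smurf2, a ubiquitin ligase that targets SMADs, was at -1.02 ± 0.51 and Id2, a SMAD target, at -1.40 ± 1.89, both with limma adjusted p = 0.801 and each with its other probe set in the opposite direction. Their values in OS of rat 2, 303 for Smurf2 and 25.2 for Id2, lay below background. The 7 tested KLF, SOX and C/EBP relatives had a median of -0.18 and no gene met the rule for naming.

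In the GADD45 and p53 list, Mdm2, the ligase that degrades p53, read 446, 702 and 157 in OS, against 634, 1566.5 and 2418 in OD, lower in OS in 3 of 3 rats by -1.82 ± 1.76 (limma adjusted p = 0.628; 1 of its 2 other probe sets had the opposite sign). Growth-associated effectors, 16 tested, were 8 higher and 8 lower by mean, with 2 higher and 4 lower in 3 of 3 rats. The ones that met the size rule for naming were all lower in OS. Npy, a neuropeptide gene, was at -2.53 ± 2.30 (limma adjusted p = 0.402). It read 1071, 23.6 and 621 in OS, against 1109, 945 and 4873.5 in OD. Rat 1 was thus nearly level, and the OS value of rat 2 lay below background. Vgf, a secreted precursor induced by neurotrophins, was at -1.34 ± 1.14 (limma adjusted p = 0.601) and Stmn2, a tubulin regulator of growing axons, at -1.15 ± 0.74 (limma adjusted p = 0.799). None of these differences passed the threshold.

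**Figure D4:**
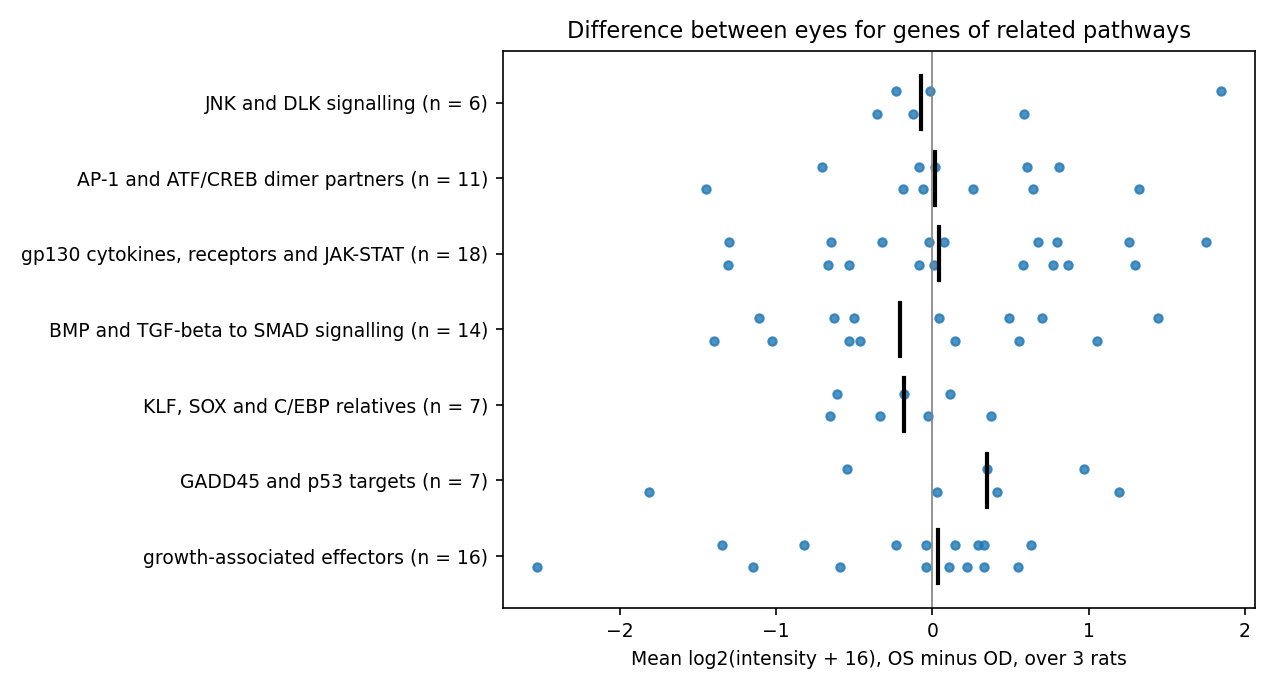
Mean difference in log2(intensity + 16), OS minus OD, of the tested genes in 7 lists of related pathways; each point is a gene and the black bars are list medians. Points lie on both sides of 0 in every list; Mapk9 is the rightmost point of the JNK and DLK list at 1.84, and Npy the leftmost of the growth-associated effectors at -2.53.

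As a description of pattern, the genes most like Atf3 over the 6 arrays were Fbxo34 (Pearson's r = 0.995), Rae1 (0.98) and Cblb (0.977). Those most like Jun (1369788_s_at) were Sec22c (0.986), Gstk1 (0.982) and Fbxo6 (0.98). The 6 arrays come from 3 animals, share scaling and differ in RNA quality, and 70 named probe sets reached an r of 0.9 with Atf3 and 112 with Jun, so little can be read from any 1 of them.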

How the data were processed

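Each of 6 Affymetrix arrays read 1 eye; arrays were grouped by the eye and rat in their titles. Values are the authors' deposited intensity per probe set on a linear scale, from GCOS per the submitters' processing notes (version and settings not given in the sources used here). Their mean after trimming was 500.1 on each array, so they were taken as globally scaled and not normalized again, which leaves out any difference in total RNA. No detection calls were used. Gene symbols came from the platform annotation; all 10 gene identifiers were in the RefSeq gene table.

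An offset of 16 was added before log2, which understates differences of dim probe sets. Of 31099 probe sets, 57 controls were left out, and the 15521 at or above the median brightness entered a linear model with terms for rat and eye (limma 3.58.1 on R 4.3.3). Variances were moderated along an intensity trend, tests were two-sided, and Benjamini-Hochberg adjustment ran over all tested, with a threshold of 0.05. With 2 residual against 19.4 prior degrees of freedom, p-values and intervals draw mostly on the pooled variance. The brightest probe set stood for a gene. Where an eye was at or below the limit on 3 of 3 arrays, a fold is given against the higher of limit and value. Values of the other eye were used as deposited, also where they lay below their own limit, so the fold is not a strict lower bound. It is a mean over the 3 rats on the log2 scale, so a single rat can fall below it.

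Eyes are paired because they come from the same animal; deviations from eye means correlated at 0.109, 0.122 and 0.326 within rats 1, 2 and 3, against -0.197 to 0.104 between eyes of different rats. In simulated data of the same 15521 probe sets, 50 changed at each size, this fit called 0% of changes of 1, 12% of 2, 36% of 3 and 46% of 4 on the log2 scale for OS minus OD, and 0 unchanged probe sets. Noise was drawn from the moderated variances of the fit. The tested members had a median SD of 1.41, against 1.10 for all tested genes, so these rates may not hold for them.

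The 10 genes, the lists and the naming rule were chosen with earlier results of these data known. All members were named; in each pathway list, genes past the threshold and up to 3 with the smallest p, one direction in all 3 rats and a mean of 1 or more (log2, either sign) were named. Similar patterns were sought for Atf3 and Jun, 3 genes each. Alternatives were other offsets, filters, scaling, pairing and variance priors, and leaving out each rat.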

Additional observations from a re-analysis of the deposited data

How the results depend on the processing

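No tested probe set of the injury response genes or of the pathway genes passed the threshold under any of the 11 alternative fits; the 8 dim probe sets were tested only with no filter. At an unadjusted limma p under 0.05 there was 1 of 11 members without rat 2 (Atf3, 2.61), 1 of 11 without rat 3 (Socs3, 2.87) and 1 of 19 with no filter (Stat3, 1371781_at). Over all tested probe sets the counts were 1287 of 15521 without rat 2, 925 of 15521 without rat 3 and 1943 of 31042 with no filter. The count of called probe sets over the whole array, 2, was 0 after quantile normalization, with an offset of 1, from the 75th percentile of brightness, with no replicate block, with a random replicate block and with no intensity trend. It was 9 with an offset of 64, 9 with no filter and 18 to 59 with 1 rat left out. Pairing the eyes changed no call among the members.

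The direction of several members depended on 1 animal or 1 probe set. With each rat left out in turn, the log2 difference ran from -1.31 to 2.61 for Atf3, -0.47 to 1.03 for Jun, -0.26 to 0.18 for Klf6, -0.34 to 0.94 for Stat3, -0.50 to 0.11 for Smad1 and -0.40 to 0.43 for Gap43; for Socs3 it stayed above 0, from 0.50 to 2.87. Averaging all probe sets of a gene gave -0.29 for Jun and -1.04 for Stat3, against 0.06 and 0.47 for the brightest; the cause was not tested. Filters, pairing and variance priors cannot change an estimate. Of the 46 values of members under alternatives that did change it, 37 kept their direction and 9 reversed, all with a rat left out or probe sets averaged. Sox11, Cebpd and Gadd45a did not pass the filter, so they had no fit with a rat left out and add no such value to this count. Cebpd (1387343_at) and Gadd45a had a mean above 0 through rat 3 and rat 1, respectively, and were lower in OS in the other rats. Sox11 differed by 2.15, -1.80 and 0.61 in rats 1, 2 and 3. With a rat left out, the direction of the named pathway genes was fixed by the rule that chose them. Signal near background limits every size given for Sox11, Cebpd, Gadd45a and Socs3. It also limits those for Atf3, Stat3 and Klf6, whose brightest probe sets exceeded the limit on 4 of 6 arrays. The same holds for the named pathway genes, each of which fell below the limit on at least 1 of 6 arrays.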
